A study of Mus musculus with 12 samples.

Results

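The 10 genes described here comprise 7 transcription factors of the epithelial-mesenchymal transition (EMT), Snai1, Snai2, Twist1, Twist2, Zeb1, Zeb2 and Prrx1, and 3 structural genes of mesenchymal and contractile cells, Vim, Acta2 and Tagln. They were taken by gene name from a table of 29428 genes, and each name matched 1 row. All 10 had at least 0.5 TPM (a transcript level scaled for gene length and library depth) in at least 3 libraries and so were among the 16127 genes tested.

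EMT is the change by which epithelial cells lose their junctions and become motile mesenchymal cells. Factors of the Snail, Twist and Zeb families bind E-box sequences, and those of the Snail and Zeb families are best known as repressors of epithelial genes such as Cdh1 (E-cadherin). In brain development the same families act in the neural crest, in mesenchyme and in the migration of neuronal precursors, whereas smooth muscle actin and transgelin mark contractile cells such as vascular smooth muscle and myofibroblasts and are classic targets of serum response factor (SRF).

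RNA-seq was performed on STHdhQ7/Q7 (genotype labelled normal) and STHdhQ111/Q111 (labelled HD) cells, immortalized mouse striatal lines with a short or an expanded CAG repeat in both huntingtin alleles. Cells were nontreated (Q7-C and Q111-C) or treated for 24 h with both murine IFNγ at 100 ng/mL and LPS at 5 μg/mL (Q7-T and Q111-T), with 3 libraries per group. Each genotype is represented by 1 line, so that genotype and line cannot be told apart. The study calls the replicates biological, the labels do not say whether they came from separate cultures, and p-values measure the spread between these libraries. In bulk RNA, fewer cells that express a gene and less RNA per cell cannot be told apart.

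Library totals ranged from 57505990 to 96417834 estimated counts. Multiples of 4 were 1.25 to 1.60 times as frequent as their neighbours, so a read pair may stand for about 4 counts, and what 1 count holds is uncertain. The median TPM of the tested genes was 4.02 in Q7-T replicate 2 and 5.36 in Q7-C replicate 1, against 7.22 to 9.82 in the others, and adjusted p-values that pass without these 2 libraries alone are given beside the genes. The treatment genes Nos2, Cxcl10, Irf1 and Gbp2 were called higher after treatment in both lines. The lines are labelled as neuronal cells. Of 14 neuron markers, 10 were measured, and Rbfox3, Nefl, Drd1 and Drd2 were absent from the data. Of the 10, 5 passed the filter, among them Stmn2 and Tubb3, at means of 73.5 and 16.9 TPM in Q7-C and 2.00 and 3.91 TPM in Q111-C. Snap25, Syt1, Nefm, Gad1 and Gad2 did not pass, and Snap25 was at 0 TPM in all libraries of Q7-C, Q7-T and Q111-T. Of 16 mesenchymal and fibroblast markers 13 passed, with a summed level of 1497 to 4377 TPM over the 12 libraries. None of the 5 endothelial and none of the 4 oligodendrocyte markers measured passed.

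Calls below are from edgeR's quasi-likelihood test over all 12 libraries, with Benjamini-Hochberg adjustment over the 16127 genes, an adjusted p under 0.05 and a fold of at least 2. Between the nontreated lines, Snai1, Snai2 and Twist1 were higher and Zeb2, Acta2 and Tagln lower in Q111-C. After treatment, Snai1 and Snai2 were higher and Vim, Acta2 and Tagln lower in Q111-T than in Q7-T. With treatment, none of the 10 genes passed this rule in STHdhQ7 cells, and Zeb2 rose in STHdhQ111 cells.

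**Figure D1:**
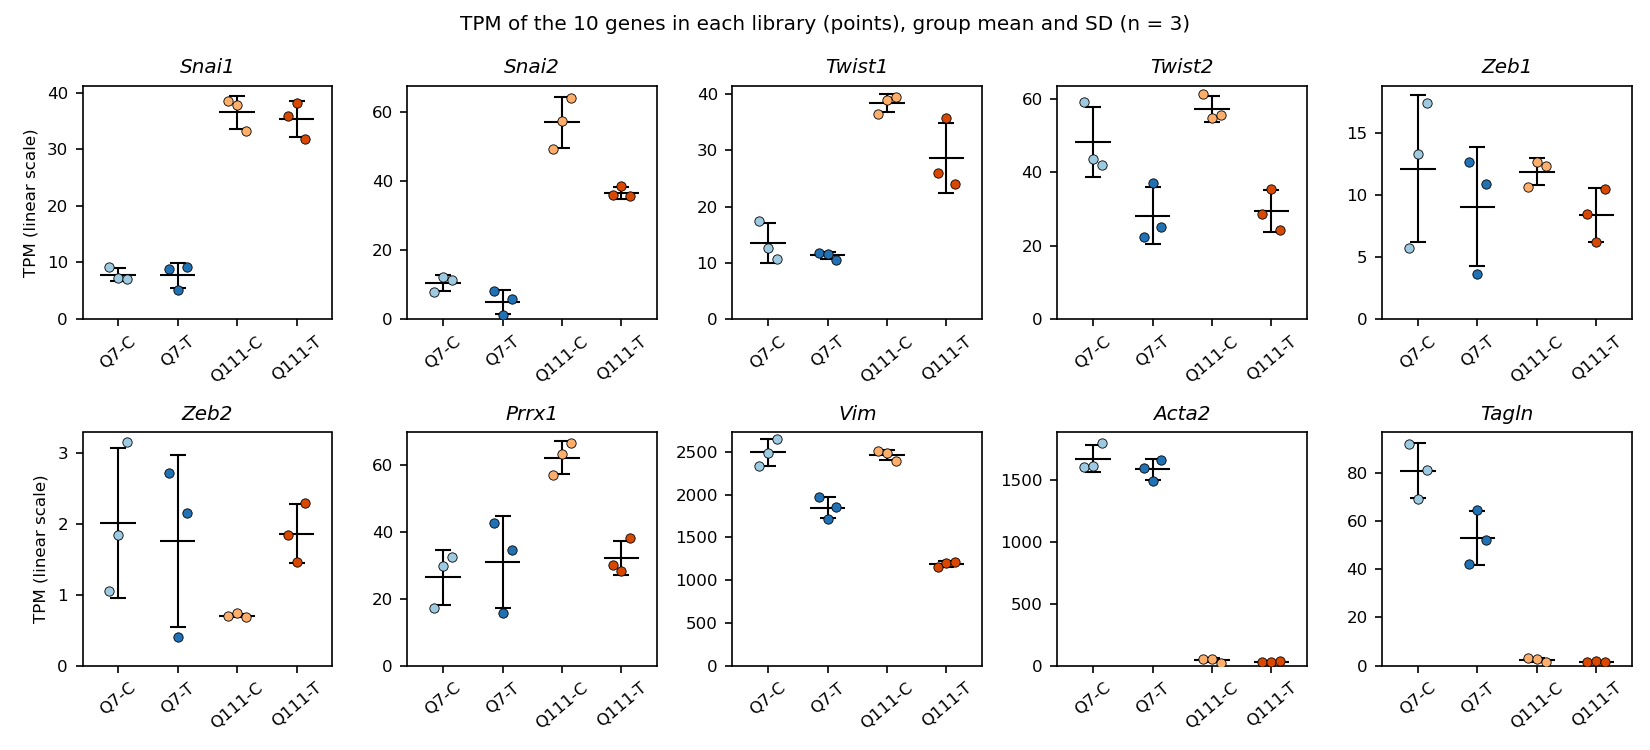
TPM (linear axis from 0) of each gene in every library (points, 3 per group), with the group mean and SD as bars. Snai1, Snai2 and Twist1 were higher in all libraries of STHdhQ111 cells than in any library of STHdhQ7 cells, and Acta2 and Tagln were lower, near the axis at this scale.

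The count of called genes stands beside the background of all tested genes. In Q111-C vs Q7-C, 3 of the 10 genes were called higher against 7.62% of all genes tested, and 3 were called lower against 7.61%. Their median log2 fold change was -0.20. In Q111-T vs Q7-T, 2 were called higher against 13.3% and 3 lower against 11.2%, with a median of -0.35. In Q7-T vs Q7-C, 0 of 10 were called in either direction, against 2.93% of all genes higher and 1.11% lower. In that comparison edgeR gave 1 gene, Snai2, an unadjusted p under 0.05, and DESeq2 and limma also called 0. In Q111-T vs Q111-C, 1 was called higher against 8.28% and 0 lower against 2.96%, although Prrx1 and Vim passed the adjusted p at less than 2-fold, where 7.33% of all genes were lower by that rule. The 1 higher call (Zeb2) was kept with DESeq2 and became 0 with limma and without any 1 of the 6 STHdhQ111 libraries. The 0 lower calls became 1 (Vim) with limma on log2(TPM + 0.5), and DESeq2 also gave 0.

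Groups whose 3 libraries did not overlap in TPM were common in most comparisons. Between nontreated lines, 7 of the 10 genes did not overlap, against 51.4% of all genes. Between treated lines the count was 6 against 46.3%. For treatment it was 3 against 14.4% in STHdhQ7 cells and 7 against 49.6% in STHdhQ111 cells. A two-sided exact permutation test of the difference in mean TPM gave p = 0.1 in each of these cases, the smallest value that 3 against 3 libraries can give.

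The scale matters for genes with small differences. The median difference of all tested genes in log2(TPM + 0.5) was 0.27 between nontreated lines and 0.34 between treated lines, while edgeR's TMM scaling set these medians to -0.02 and -0.03. The treatment medians on the TPM scale were -0.16 in STHdhQ7 and -0.10 in STHdhQ111 cells. Between nontreated lines edgeR called 1229 genes higher and 1227 lower, while with limma on log2(TPM + 0.5) the higher genes made up 66.0% of the calls. Between treated lines the shares of higher genes were 54.2% with edgeR and 79.1% with limma. Ratios of mean TPM below therefore exceed edgeR's folds where STHdhQ111 cells were higher and fall short of them where these cells were lower.

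Snai1 (Snail) is a zinc-finger repressor of Cdh1 and other epithelial genes (ENSMUSG00000042821, GRCm38, chr2:167538195-167542814, plus strand). Its level was 9.19, 7.30 and 7.02 TPM in Q7-C and 8.81, 5.20 and 9.27 TPM in Q7-T. It was 38.6, 37.9 and 33.2 TPM in Q111-C and 35.9, 38.2 and 31.9 TPM in Q111-T. Every STHdhQ111 library was above every STHdhQ7 library, and within each line the treated and nontreated libraries overlapped. The ratio of mean TPM was 4.66 ± 0.797 (SD from both groups, n = 3) between nontreated lines and 4.55 ± 1.37 between treated lines. In edgeR the log2 fold change was 1.86 (SE 0.24, adjusted p = 1.71e-04) without and 1.83 (SE 0.24, adjusted p = 1.43e-04) with treatment. Treatment values were 0.09 (adjusted p = 0.907) in STHdhQ7 cells and 0.06 (adjusted p = 0.911) in STHdhQ111 cells, and both turn to small negative values on the TPM scale.

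The RefSeq promoter table (GRCm38.p6) held windows for 7 of the 10 genes, with 4 alternative starts for Zeb2. The 250 bases before each start were searched on both strands. Snai1 is shown because its window held 1 E-box of the kind that Snail and Zeb factors bind (CACCTG or its reverse complement CAGGTG), which 17.2% of all 32817 promoter windows also held. It lay 126 to 121 bases before the start (chr2:167538057-167538086, plus strand; capitals mark the E-box).
Snai1: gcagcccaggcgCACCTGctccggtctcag
No other window of the 7 genes held this E-box.

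Snai2 (Slug), the second Snail-family repressor and a marker of neural crest and mesenchyme (ENSMUSG00000022676, chr16:14705852-14709385, plus strand), stood at 7.78, 12.3 and 11.3 TPM in Q7-C and at 8.04, 1.24 and 5.75 TPM in Q7-T. The STHdhQ111 libraries held 49.5, 57.6 and 64.3 TPM in Q111-C and 35.9, 38.7 and 35.6 TPM in Q111-T. As for Snai1, the lines did not overlap, and unlike Snai1 the treated Q111 libraries were all below the nontreated ones. The log2 fold change between lines was 2.15 (SE 0.37, adjusted p = 0.00121) without treatment and 2.63 (SE 0.38, adjusted p = 2.56e-04) with treatment. The treated value rests in part on the 1.24 TPM of Q7-T replicate 2 and was 2.26 without that library. The treatment values were -1.01 (SE 0.36, unadjusted p = 0.0163, adjusted p = 0.171) in STHdhQ7 cells, or -0.62 without Q7-T replicate 2, and -0.52 (adjusted p = 0.379) in STHdhQ111 cells. Neither passed the test. Without both libraries of low median TPM they were -0.71 (adjusted p = 0.0424) and -0.51 (adjusted p = 0.0199), under 2-fold.

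Snai3, the remaining Snail gene, was much lower than both and followed another course. It was at 1.80, 1.52 and 1.24 TPM in Q7-C, 0.286, 0.361 and 0.176 TPM in Q7-T, 0.663, 0.796 and 0.727 TPM in Q111-C and 1.80, 1.89 and 1.94 TPM in Q111-T. It fell with treatment in STHdhQ7 cells (log2 fold change -2.19, adjusted p = 0.0159) and rose in STHdhQ111 cells (1.45, adjusted p = 0.0417). In edgeR the responses differed by 3.64 (SE 0.64, adjusted p = 0.0072), on 15 to 113 estimated counts per library.

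Twist1 is a basic helix-loop-helix factor of head mesenchyme (ENSMUSG00000035799, chr12:33957671-33959829, plus strand). It was at 17.5, 12.6 and 10.7 TPM in Q7-C and 11.7, 11.6 and 10.6 TPM in Q7-T. In STHdhQ111 cells it was at 36.5, 39.0 and 39.6 TPM without and 26.0, 35.7 and 24.1 TPM with treatment. The STHdhQ111 libraries lay above all STHdhQ7 libraries, and the treated Q111 libraries below the nontreated ones. The ratio of mean TPM between nontreated lines was 2.82 ± 0.747. The log2 fold change was 1.11 (SE 0.34, adjusted p = 0.0354), between 0.92 and 1.55 without single libraries. This call was lost without Q7-C replicate 2 or 3 or any 1 of the Q111-C libraries, with an adjusted p of up to 0.111. Between treated lines the value was 0.90 (adjusted p = 0.0545), and it passed without Q7-T replicate 2, without both libraries of low median TPM (1.24, adjusted p = 0.0013) and on the TPM scale. The treatment values of -0.09 and -0.30 did not pass (adjusted p = 0.945 and 0.643).

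Twist2 (Dermo1), its paralog in dermal and osteogenic mesenchyme, had no call (ENSMUSG00000007805, chr1:91801461-91848028, plus strand). It was at 59.2, 43.5 and 42.0 TPM in Q7-C, 22.4, 37.0 and 25.2 TPM in Q7-T, 61.4, 54.8 and 55.5 TPM in Q111-C and 28.6, 35.5 and 24.3 TPM in Q111-T. The treated libraries of each line were all below the nontreated ones, and the lines overlapped. The treatment values were -0.52 (SE 0.39, adjusted p = 0.622) in STHdhQ7 and -0.84 (SE 0.39, adjusted p = 0.178) in STHdhQ111 cells, the latter -0.83 (adjusted p = 0.005) without both libraries of low median TPM. In STHdhQ7 cells the value was -1.11 (adjusted p = 0.0632) without Q7-T replicate 2, and -0.13 (adjusted p = 0.866) without Q7-C replicate 1. Between lines the values were -0.13 and -0.45 (adjusted p = 0.86 and 0.383) and turned positive on the TPM scale. Between nontreated lines Twist1 passed the test and Twist2 did not, and the difference between both genes was not tested. The annotation (GENCODE M21) places the antisense gene Gm29100 and the intronic Gm29101 within Twist2, and none was listed within Twist1, Snai1, Snai2, Vim or Acta2.

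Zeb1 and Zeb2 are large zinc-finger and homeodomain repressors, and Zeb2 also acts in the migration and fate of forebrain interneurons. Zeb1 (ENSMUSG00000024238, chr18:5591860-5775467, plus strand) was at 5.70, 13.3 and 17.4 TPM in Q7-C and 12.6, 3.65 and 10.9 TPM in Q7-T. It was at 10.7, 12.7 and 12.3 TPM in Q111-C and 8.48, 6.20 and 10.5 TPM in Q111-T. The STHdhQ7 libraries spread over the whole range of the STHdhQ111 ones, with the lowest values in the 2 libraries of low median TPM. Its log2 fold changes lay between -0.27 and -0.42 in the 4 comparisons and did not pass the test (adjusted p from 0.288 to 0.754). Those between lines turned positive on the TPM scale, and without both libraries of low median TPM they were -0.54 (adjusted p = 0.0204) between nontreated lines, -0.65 (adjusted p = 0.0058) between treated lines and -0.41 (adjusted p = 0.0423) for treatment of STHdhQ111 cells, all under 2-fold.

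Zeb2 (ENSMUSG00000026872, chr2:44983632-45117395, minus strand) was the lowest of the 10 genes in mean TPM in all groups but Q111-T. It was at 1.06, 1.84 and 3.16 TPM in Q7-C, 2.72, 0.398 and 2.16 TPM in Q7-T, 0.699, 0.737 and 0.686 TPM in Q111-C and 1.84, 1.46 and 2.30 TPM in Q111-T. The nontreated Q111 libraries lay close together and below all those of Q7-C and Q111-T, while the Q7-T libraries lay on both sides. Zeb2 was lower in Q111-C than in Q7-C, with a log2 fold change of -1.77 (SE 0.43, adjusted p = 0.0112). It rose with treatment in STHdhQ111 cells by 1.48 (SE 0.43, adjusted p = 0.0318), and the value in STHdhQ7 cells was -0.11 (adjusted p = 0.944).

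Both Zeb2 calls depended on the libraries and the scale. The call between lines was lost without Q7-C replicate 3, without Q111-C replicate 3 and with limma on the TPM scale, with values from -1.98 to -0.76 over all alternatives and an adjusted p of up to 0.158. The treatment call was lost without any 1 of the 6 STHdhQ111 libraries and with limma, with values from 0.74 to 1.54 over all alternatives and an adjusted p of up to 0.192. The responses of the lines differed by 1.59 (SE 0.60, unadjusted p = 0.021, adjusted p = 0.16), which passed at 1.45 (adjusted p = 0.00852) after both libraries of low median TPM were left out. Zeb2os, antisense to Zeb2, was at 0 to 0.646 TPM over the 12 libraries.

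Zeb2 is shown because it was called higher after IFNγ and LPS in STHdhQ111 cells, a call that depended on the libraries and the scale. Windows at 2 of its 4 starts shared 1 match to the palindromic GAS element of interferon-responsive promoters (TTCNNNGAA), which 7.01% of all windows held. It lay 147 to 139 bases before one start and 173 to 165 before the other (chr2:45113408-45113437, minus strand; capitals mark the match).
Zeb2: gagttctccagTTCTGTGAAtggtgtgcac
The windows of Snai1, Twist1, Twist2, Prrx1, Vim and Acta2, 1 for each gene, held no such match. Zeb2 had 4 windows, and the share of genes with a match in any window was not computed. The 2 Zeb2 windows with the match lie inside the gene as placed by GENCODE. Whether the match has a part in the Zeb2 response was not tested.

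Prrx1 is a paired-type homeobox factor of limb and craniofacial mesenchyme (ENSMUSG00000026586, chr1:163245119-163313710, minus strand). It was at 17.1, 29.7 and 32.5 TPM in Q7-C and 42.6, 15.8 and 34.5 TPM in Q7-T, against 56.8, 63.1 and 66.5 TPM in Q111-C and 30.1, 28.2 and 38.0 TPM in Q111-T. Nontreated STHdhQ111 cells stood above every other group without overlap, and the other groups overlapped one another. The Q7-C and Q7-T libraries lowest for Prrx1 were the 2 of low median TPM. The log2 fold change between nontreated lines was 0.95 (SE 0.19, adjusted p = 0.0031), under 2-fold. By the adjusted p alone 11.1% of all genes were higher. It passed both limits in 6 of 24 alternatives, limma at each pseudocount (up to 1.28) and some fits without a single library (up to 1.07). Between treated lines the value was -0.28 (adjusted p = 0.26). That value was -0.41 (adjusted p = 0.0142) without both libraries of low median TPM and turned positive on the TPM scale. With treatment Prrx1 fell by 0.86 on the log2 scale in STHdhQ111 cells (SE 0.19, adjusted p = 0.00742, up to 0.0898 in the alternatives) and had a value of 0.37 (adjusted p = 0.381) in STHdhQ7 cells.

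Prrx1 was the 1 gene of the 10 with a called difference in response between the lines, where 1.20% of all genes were called lower and 3.52% higher (0 of the 10 higher). The difference of the log2 responses was -1.23 (SE 0.26, adjusted p = 0.0186) in edgeR. Without both libraries of low median TPM it was -1.24 (adjusted p = 0.00109), and leaving out single libraries gave values between -1.07 and -1.41. The call was lost without Q111-C replicate 2 or 3, without Q111-T replicate 1 and with limma on the TPM scale, with an adjusted p of up to 0.282. Its paralog Prrx2 was at 32.3 to 50.7 TPM in Q7-C, 26.0 to 41.1 TPM in Q7-T, 21.6 to 24.5 TPM in Q111-C and 7.24 to 14.7 TPM in Q111-T, and passed the test between treated lines alone, with a log2 fold change of -2.02 (adjusted p = 0.00448).

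**Figure D2:**
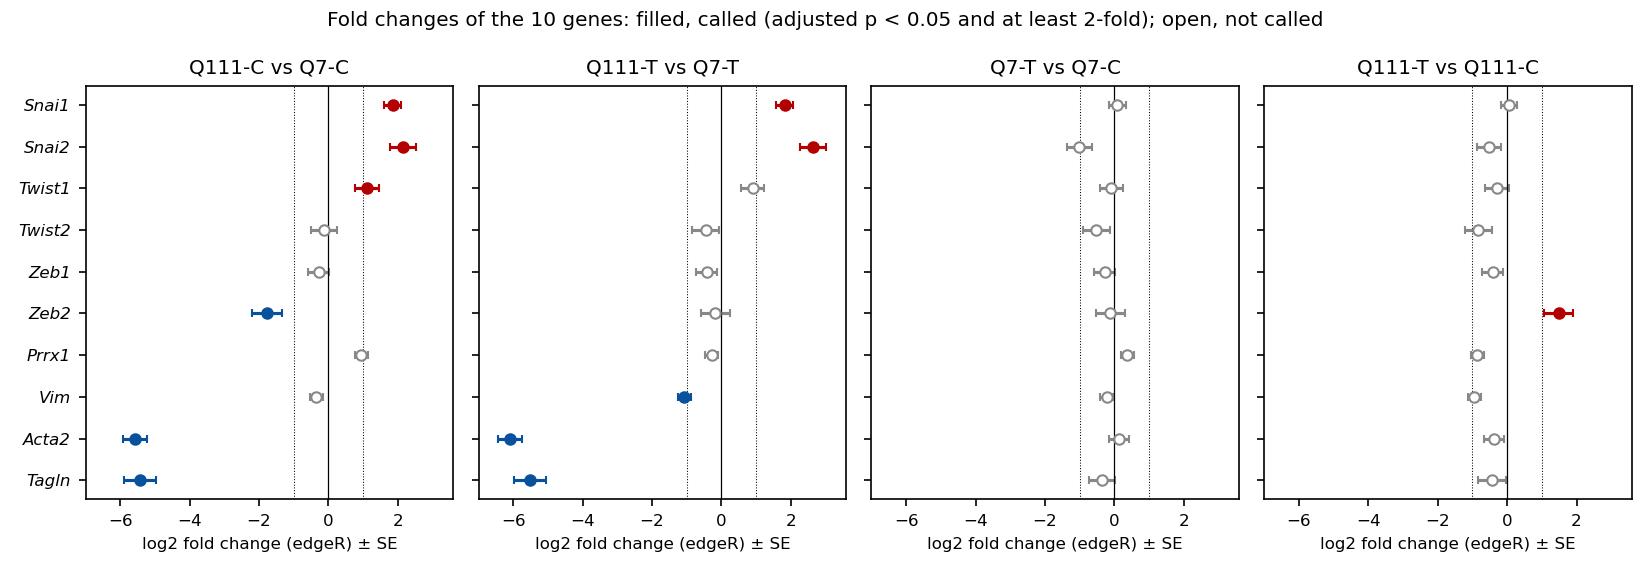
Log2 fold change of each gene from edgeR with its SE (horizontal bars) in the 4 comparisons of 3 against 3 libraries. Filled points passed the adjusted p and the 2-fold limit (dotted lines), with Acta2 and Tagln at -5.44 to -6.09 between the lines and all treatment points of STHdhQ7 cells open.

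Vim encodes vimentin, the intermediate filament protein of mesenchymal cells, astrocytes and neural precursors (ENSMUSG00000026728, chr2:13573927-13582826, plus strand). It was the highest of the 10 genes in every group. It was at 2335, 2492 and 2651 TPM in Q7-C and 1972, 1718 and 1853 TPM in Q7-T, against 2508, 2481 and 2397 TPM in Q111-C and 1147, 1202 and 1209.7 TPM in Q111-T. The nontreated lines overlapped, the treated libraries of both lines lay below the nontreated ones, and the treated Q111 libraries lay below all others. The mean in Q111-T was 0.482 ± 0.0179 of that in Q111-C, and the mean in Q7-T was 0.741 ± 0.0695 of that in Q7-C.

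In edgeR, Vim fell by 0.95 on the log2 scale in treated STHdhQ111 cells (SE 0.19, adjusted p = 0.00403) and had a value of -0.22 (adjusted p = 0.667) in STHdhQ7 cells. The responses differed by -0.72 (SE 0.26, unadjusted p = 0.0183, adjusted p = 0.149), which did not pass, and by -0.59 (adjusted p = 0.0307) without both libraries of low median TPM. Between treated lines Vim was lower in Q111-T, by a log2 fold change of -1.07 (SE 0.19, adjusted p = 0.00104). That value was -0.64 with limma on log2(TPM + 0.5), and the 2-fold limit was also missed without Q7-T replicate 2 or Q111-T replicate 1, where the range over single libraries left out was -1.17 to -0.86. The value between nontreated lines was -0.35 (adjusted p = 0.226).

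Vim is shown for its matches to the κB site of NF-κB, which LPS activates. Its window held 3 matches, of which 2 overlap, and 7.25% of all windows held at least 1. They lay 223 to 214 bases (chr2:13574078-13574107, plus strand) and 142 to 132 bases (chr2:13574159-13574188) before the RefSeq start, with the matches in capitals. GENCODE places the start of a Vim transcript upstream of this window.
Vim: gtgatcaccaGGAAAGCCCCtgaaaggcct
Vim: gaaggctcgaGGGGAGCTCCCtcccccacc
No window of the other 6 genes held such a match, and whether the matches have a part in the Vim response was not tested.

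The contractile genes showed the largest differences of the 10. Acta2 encodes smooth muscle α-actin (ENSMUSG00000035783, chr19:34241090-34255590, minus strand). It was at 1605, 1612 and 1792 TPM in Q7-C and 1597, 1491 and 1660.0 TPM in Q7-T. In STHdhQ111 cells it was at 50.6, 56.0 and 24.6 TPM without and 28.6, 31.0 and 34.6 TPM with treatment. The lines were far apart in every library, and treated and nontreated libraries overlapped in both. The mean was 38.2 ± 14.8 times higher in Q7-C than in Q111-C and 50.5 ± 5.56 times higher in Q7-T than in Q111-T. The log2 fold change was -5.59 (SE 0.35, adjusted p = 7.97e-07) without and -6.09 (SE 0.36, adjusted p = 5.16e-07) with treatment, which edgeR's scaling puts at 48.0-fold and 68.3-fold. The treatment values of 0.13 and -0.37 did not pass (adjusted p = 0.887 and 0.45), and the first turned to -0.08 on the TPM scale.

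The other actins were measured beside Acta2, and their difference from it was not tested. The cytoplasmic Actb had a mean of 1223 ± 18.1 TPM in nontreated STHdhQ7 and 1582 ± 82.0 TPM in nontreated STHdhQ111 cells, and its log2 fold change was 0.03 (adjusted p = 0.932). Actg1 was at 2716 ± 583 and 1977 ± 52.7 TPM, lower in every Q111-C library, with a value of -0.76 (adjusted p = 0.00249). The other smooth muscle actin, Actg2, did not pass the filter, with 0.340 to 0.792 TPM in Q7-C, 0.320 to 0.590 TPM in Q7-T, 0 to 0.232 TPM in Q111-C and 0 to 0.452 TPM in Q111-T, so that the nontreated lines did not overlap. The skeletal Acta1 varied widely within groups, from 0.256 to 572 TPM in Q7-T and from 0.440 to 99.3 TPM in Q111-C, and how reads shared among the actin genes were counted was not tested. In the libraries with the lowest Acta1 of Q7-C and Q7-T (0.359 and 0.256 TPM), Acta2 was at 1792 and 1660.0 TPM.

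Tagln encodes transgelin (SM22α), an actin-binding protein of smooth muscle (ENSMUSG00000032085, chr9:45929619-45936058, minus strand). It was at 91.8, 69.0 and 81.2 TPM in Q7-C, 42.3, 64.5 and 52.1 TPM in Q7-T, 3.09, 2.55 and 1.48 TPM in Q111-C and 1.29, 1.92 and 1.63 TPM in Q111-T. The lines were again far apart, and the Q7-T libraries lay below those of Q7-C. The mean was 34.0 ± 12.7 times higher in Q7-C than in Q111-C and 32.8 ± 9.43 times higher in Q7-T than in Q111-T. The log2 fold change was -5.44 (SE 0.46, adjusted p = 7.95e-06) without and -5.51 (SE 0.47, adjusted p = 6.43e-06) with treatment. The STHdhQ111 values rest on 91 to 192 estimated counts per library. The treatment values of -0.35 and -0.43 did not pass (adjusted p = 0.747 and 0.552). Pcsk7, a protein-coding gene that overlaps Tagln on the opposite strand, had 9.22 ± 2.10 TPM in Q7-C against 15.7 ± 1.37 TPM in Q111-C (log2 fold change 0.47, adjusted p = 0.0711). It had 1591 to 3046 estimated counts per library in STHdhQ111 cells, and since the strand setting of the counting is not known, whether Tagln's counts there include reads of Pcsk7 was not tested.

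Acta2 is shown because CArG boxes, the SRF sites of contractile genes, are known from its promoter. No window of the 7 genes held a strict CArG box (CC, 6 bases of A or T, GG), which 1.47% of all windows held. With exactly 1 G or C allowed among the 6 middle bases, a form chosen after the sequence was seen, the Acta2 window alone matched, at 2 places, and 7.25% of all windows matched. These lay 84 to 75 bases (chr19:34255438-34255467, minus strand) and 34 to 25 bases (chr19:34255388-34255417) before the RefSeq start, with the elements in capitals. GENCODE places the start of an Acta2 transcript upstream of that of RefSeq.
Acta2: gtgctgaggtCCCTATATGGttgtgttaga
Acta2: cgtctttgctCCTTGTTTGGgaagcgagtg

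The lists of related genes place these differences among their neighbours. A list of 18 further smooth muscle contractile genes also held paralogs of such genes, among them Tagln3 and Cnn2. Of the 18, 16 were tested and 4 were lower in Q111-C than in Q7-C, with 0 higher and a list median of -0.81. They were Myl9 (regulatory myosin light chain, -4.53, adjusted p = 6.68e-05), Lmod1 (leiomodin, -3.72), Tagln3 (-2.48) and Cnn2 (calponin 2, -1.10). Tagln3 was at 0.482 to 0.850 TPM in Q111-C, on 23 to 33 estimated counts per library. Between treated lines 8 were lower and 0 higher, with a median of -1.11. The smooth muscle myosin Myh11 did not pass the filter and reached at most 0.272 TPM, and Cnn1 was at means of 0.124 to 0.716 TPM. Des (desmin) was called higher with treatment in STHdhQ7 cells (adjusted p = 0.0442), at 0.808, 9.86 and 38.4 TPM in the Q7-T libraries in order of level against 0.975 to 1.40 TPM in Q7-C, so that 1 treated library lay below all nontreated ones, and 0 of the 16 passed in STHdhQ111 cells.

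Of SRF and its coactivators, Srf was lower in Q111-C than in Q7-C, with 22.7 ± 1.65 against 37.1 ± 3.74 TPM and a log2 fold change of -1.03 (adjusted p = 0.00108). Between treated lines Srf had a value of -0.84 (adjusted p = 0.00284), under 2-fold. Mrtfa was lower between treated lines, at -1.01 (adjusted p = 3.89e-04). Its value of -0.36 between nontreated lines did not pass (adjusted p = 0.123). Mrtfb passed in neither case, with positive values of 0.22 (adjusted p = 0.704) between nontreated and 0.515 (adjusted p = 0.246) between treated lines. Of 8 YAP and TGF-β response genes, Tgfbi was higher (3.90, adjusted p = 1.01e-07) and Ccn2 lower (-1.54, adjusted p = 9.21e-04) in Q111-C. Of 6 further intermediate filament genes tested, 2 were lower in Q111-C, Prph (peripherin, -3.45) and Nes (nestin, -3.18), and 0 were higher.

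The mesenchymal markers moved in both directions. Of 13 tested, 6 were higher in Q111-C, among them Pdgfra (4.54), Col1a2 (3.81), Dcn (2.60) and Col3a1 (2.00), while Cdh2 (N-cadherin) was lower (-1.93), and the median was 0.55. Their summed level was 2561 to 2681 TPM in Q7-C, against 4113 to 4377 TPM in Q111-C. With treatment it was 1572 to 1618 TPM in Q7-T and 1497 to 1872 TPM in Q111-T, and 6 genes fell and 1 (Dcn) rose in STHdhQ111 cells, while 3 (Col3a1, Col1a2 and Col1a1) fell and Dcn rose in STHdhQ7 cells. Of 20 epithelial markers 11 were tested. Esrp2 and Dsp were higher in Q111-C, and Pkp1, Tjp3, Krt19 and Cdh1 were lower, with Cdh1 at 0.746 ± 0.261 TPM in Q7-C, against 0.218 ± 0.0542 TPM in Q111-C (-2.09, adjusted p = 0.00389). Their summed level was 98.2 to 127 TPM in Q7-C, 54.7 to 65.3 TPM in Q7-T, 72.5 to 91.5 TPM in Q111-C and 53.5 to 83.0 TPM in Q111-T.

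Among 8 relatives of the Snail and Twist factors tested, Sox9 (3.20, adjusted p = 6.96e-07) and Foxc2 (1.18, adjusted p = 0.00303) were higher and Msx1 (-2.63, adjusted p = 2.96e-04) and Snai3 lower in Q111-C. Of 14 partners and inhibitors of the EMT factors, 0 were higher and 2 lower. These were Id4 (-5.11, adjusted p = 1.08e-06) and, just past the 2-fold limit, Id1 (adjusted p = 0.00697), inhibitors of basic helix-loop-helix factors. Id4 was at 19.2 ± 2.59 TPM in Q7-C, 5.45 ± 1.28 TPM in Q7-T, 0.688 ± 0.289 TPM in Q111-C and 0.822 ± 0.141 TPM in Q111-T. It fell with treatment in STHdhQ7 cells (-1.64, adjusted p = 0.00457).

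**Figure D3:**
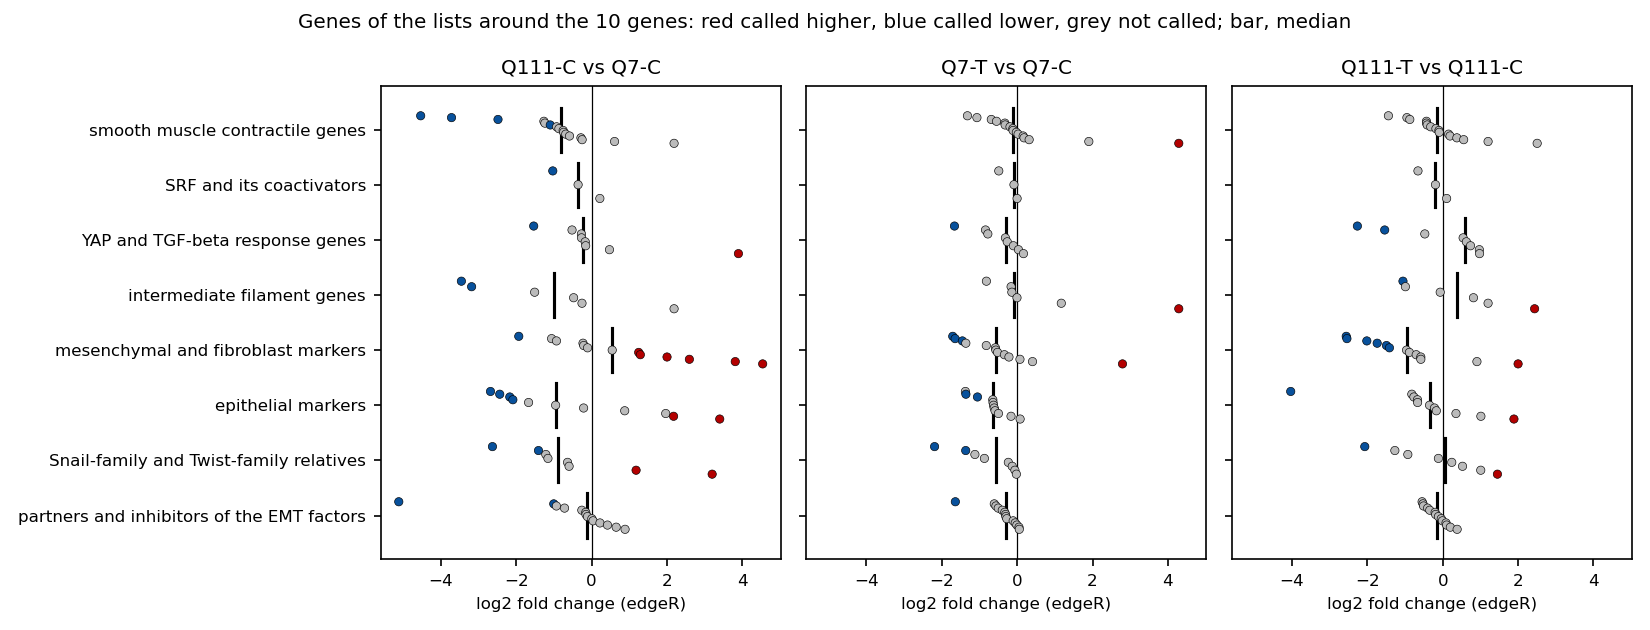
Log2 fold change (edgeR, horizontal axis) of each tested gene of 8 lists in 3 comparisons, coloured by call, with the list median as a bar. The contractile list holds 4 lower and 0 higher genes in Q111-C vs Q7-C, and the mesenchymal list holds 6 higher and 1 lower.

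Markers of other cell types were measured in the same libraries. The summed neuron markers were at 102 to 114 TPM in Q7-C, 137 to 177 TPM in Q7-T, 19.7 to 24.0 TPM in Q111-C and 41.8 to 48.7 TPM in Q111-T. Of 5 neuron markers tested, Stmn2 (-5.53, adjusted p = 6.77e-07) and Tubb3 (-2.46) were lower in Q111-C. In Q7-C these carried most of the sum, with 73.5 ± 4.86 and 16.9 ± 0.803 TPM. In Q111-C they were at 2.00 ± 0.791 and 3.91 ± 1.21 TPM, below Dlg4 (8.79 ± 0.387 TPM) and Map2 (5.90 ± 0.358 TPM). Between treated lines Stmn2 and Tubb3 were again lower, and Map2 was higher in Q111-T (1.12, adjusted p = 0.0223). Map2 was called lower with treatment in STHdhQ7 cells, with 7.93 ± 3.20 TPM in Q7-C and 2.13 ± 1.34 TPM in Q7-T. It was at 5.90 ± 0.358 TPM in Q111-C and 5.61 ± 1.08 TPM in Q111-T. Tubb3 was called higher with treatment in both lines, at 74.6 ± 14.5 TPM in Q7-T and 24.7 ± 1.76 TPM in Q111-T. The summed pericyte and smooth muscle markers were at 15.4 to 26.7 TPM in Q7-C, 7.54 to 10.5 TPM in Q7-T, 12.8 to 13.4 TPM in Q111-C and 6.49 to 12.6 TPM in Q111-T, with Mcam lower in Q111-C than in Q7-C (-3.29) and at -0.78 between treated lines (adjusted p = 0.0302, under 2-fold), Rgs5 at means of 0.0489 to 0.984 TPM over the 4 groups, and Abcc9 and Kcnj8 not passing the filter. Of 7 astrocyte markers 3 were tested, with Slc1a3 higher in Q111-C (3.18, adjusted p = 1.08e-05). Aldh1l1 was called lower in Q111-C (adjusted p = 0.0459) on at most 20 estimated counts per library there, with 0 to 0.115 TPM against 0.191 to 0.469 TPM in Q7-C, and was at 1.05 to 1.61 TPM in Q111-T. Of the microglial markers Tmem119 alone passed the filter. Whether a change in the makeup of the cultures has a part in the differences of Acta2, Tagln, Snai1 and Snai2 was not tested.

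Across the 12 libraries, the genes whose TMM-scaled log2 CPM (counts relative to library size) correlated best with each of the 10 were listed as a description, since the points share libraries and scaling. Acta2 was followed by Epb41l4a (r = 0.997), Pdpn (r = 0.996) and Stmn2 (r = 0.995), and Tagln by Syngr1 (r = 0.998), the pseudogene Rps2-ps13 (r = 0.996) and Acta2 itself (r = 0.994). Snai1 was followed by Gm6123, Tspan6 (both r = 0.984) and Pax9 (r = 0.983), and Snai2 by Fetub (r = 0.985), Tacc1 and Tgfbr2 (both r = 0.984). In Q111-C vs Q7-C the genes named for Acta2 and Tagln had log2 fold changes of -6.39 (Pdpn) to -3.14 (Syngr1). Those named for Snai1 and Snai2 had 0.48 (Tacc1) to 5.41 (Pax9). Such correlations cannot be told apart from a difference between the lines that the genes share. The best for the other genes were Asf1b for Twist1 (r = 0.984), Fzd2 for Vim (r = 0.987), Crim1 for Zeb2 (r = 0.974), Cand1 for Zeb1 (r = 0.970), Fgf10 for Prrx1 (r = 0.965) and Chst12 for Twist2 (r = 0.960).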

How the data were processed

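According to the study's methods, stranded poly(A) libraries were sequenced from both ends, reads were trimmed with Cutadapt and mapped with HISAT2 to GRCm38 (Ensembl release 101), and StringTie and Ballgown estimated expression. Versions of these tools and the strand setting of the counting are not given in the sources used here. The authors deposited TPM values and estimated counts per gene and library in 1 table. Of its columns, 0 were without a sample. The estimated counts were taken as deposited and rounded to whole numbers. TPM sums over the rows of the table ranged from 688352 to 719623.

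Genes that reached 0.5 TPM in 3 or more libraries were tested with edgeR 4.0.16 (quasi-likelihood, TMM) in R 4.3.3, with 1 mean per group and contrasts for line, treatment and their interaction. Alternatives used DESeq2 1.42.0, limma 3.58.1 on log2(TPM + pseudocount), other scalings and filters, counts divided by 4, a replicate block and single libraries left out. Ratios of mean TPM carry an SD propagated from both groups. Depth limits the precision of low genes, and no libraries were duplicates, since replicates differed with a chi-square per degree of freedom of at least 5.06.

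The genes, lists and alternatives were chosen with earlier results of these data known. Named are all 10 genes, up to 4 called genes per list and comparison with the largest fold, and the 3 genes most correlated with each of the 10 (fewer are given for 6 of them). Paralogs, overlapping genes and defining markers are named in addition, some after their values were seen. Feature positions and overlaps are from GENCODE M21 and promoter windows from RefSeq (GRCm38.p6). Snai2, Zeb1 and Tagln had no entry in the promoter table.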

Additional observations from a re-analysis of the deposited data

Results flagged for a closer look

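The response of Prrx1 to IFNγ and LPS differed between the lines in the test of the difference itself, by -1.23 on the log2 scale (edgeR, adjusted p = 0.0186). All 3 treated Q111 libraries were below the nontreated ones, while the STHdhQ7 libraries overlapped. The call was lost in 6 of 23 alternatives, with values of the same sign.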

How the results depend on the processing

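The calls of Snai1, Snai2, Acta2 and Tagln between the lines kept their direction and passed the test in all 24 alternatives, with log2 fold changes of 1.69 to 2.21 for Snai1, 2.09 to 3.20 for Snai2, -6.22 to -5.26 for Acta2 and -5.77 to -4.35 for Tagln. Counts of calls between nontreated lines, between treated lines and for treatment of STHdhQ7 cells stayed within 1.5 times, although the genes called could change. Between nontreated lines Prrx1 was also called higher with limma at each pseudocount. Without Q7-C replicate 2, Q7-C replicate 3 or Q111-C replicate 1, Prrx1 was called higher there and Twist1 was not. In Q111-T vs Q111-C the 1 higher call (Zeb2) became 0 with limma at each pseudocount and 0 to 1 with single libraries left out. There the 0 lower calls became 1 with upper quartile scaling, 1 with limma at each pseudocount, 2 with the adjusted p alone and 0 to 1 with single libraries left out. For the interaction, the 1 lower call (Prrx1) became 0 with limma and 0 to 1 with single libraries left out, and 1 higher call (Zeb2) appeared without Q7-C replicate 1 and Q7-T replicate 2 together, a setting chosen after seeing the data. Signs turned only for values that had not passed. With limma at pseudocounts of 0.5, 0.1 and 1, Q111-C vs Q7-C gave 0.26, 0.26 and 0.26 for Twist2 and 0.10, 0.11 and 0.09 for Zeb1. Q111-T vs Q7-T gave 0.078, 0.080 and 0.077 for Twist2, 0.030, 0.041 and 0.019 for Zeb1, 0.25, 0.40 and 0.16 for Zeb2 and 0.15, 0.16 and 0.15 for Prrx1. Q7-T vs Q7-C gave -0.044, -0.048 and -0.040 for Snai1 and -0.077 at each pseudocount for Acta2, and Q111-T vs Q111-C gave -0.050, -0.051 and -0.049 for Snai1, or -0.013 with upper quartile scaling. Without both libraries of low median TPM, Twist2 was 0.25 in Q111-C vs Q7-C and 0.19 in Q111-T vs Q7-T, and in Q7-T vs Q7-C Twist1 was 0.023 and Zeb2 0.049. With single libraries left out, the ranges in Q111-C vs Q7-C were -0.27 to 0.26 for Twist2 and -0.53 to 0.016 for Zeb1, and in Q111-T vs Q7-T -0.71 to 0.16 for Twist2 and -0.57 to 0.18 for Zeb2. In Q7-T vs Q7-C they were -0.075 to 0.42 for Snai1, -0.38 to 0.36 for Twist1, -0.47 to 0.30 for Zeb2 and -0.081 to 0.27 for Acta2, and in Q111-T vs Q111-C -0.12 to 0.15 for Snai1. The causes of these changes were not tested. Whether replicate numbers pair the libraries is not known. Deviations of same-numbered libraries from their group means had correlations of -0.42 to 0.30. These cannot decide it, since differently numbered libraries were not compared. With the replicate block 3 genes were higher and 3 lower in Q111-C vs Q7-C, and the block changed no call of the 10 genes. The fit restricted to the groups compared gives no interaction. Of the 10 genes, Tagln in STHdhQ111 cells had the fewest counts apart from 1 library of Snai2 (97), and list genes of low level, such as Esrp2, Tjp3, Cdh1 and Snai3, had fewer in some groups, which limits their precision.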
